A study of Mus musculus with 71 samples.

Results

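The comparison described here asked what changed in the rest of the mouse embryo when miR-92a-1 alone was deleted from the miR-17~92 cluster. It sets 3 libraries of the genotype Delta_92 (Δ92 below, miR-92a-1 deleted) against 3 libraries with a wild-type locus. These are 6 of the 71 libraries of the series, and they were chosen by their table columns and sample titles, with no measured value used. The series covers 8 genotypes at this locus and 3 dissected tissues, which are the tail bud, the heart and all that remained of the embryo after both had been removed. Embryos were collected from C57BL/6 matings at day 9.5 of development, at a stage of 20 to 22 somites. The labels name no conditional allele and no Cre driver, and they do not give the zygosity. A second pair of genotypes differs by the same miRNA and uses none of these 6 libraries: Delta_17_18 lacks miR-17, miR-20a and miR-18a (Δ17,18, 3 libraries), and Delta_17_18_92 lacks these and miR-92a-1 as well (Δ17,18,92, 2 libraries). The series text calls the replicates biological, so each is read here as a separate sample, although the labels do not say whether it holds 1 embryo or a pool.

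A microRNA guides Argonaute proteins to messenger RNAs, mostly through pairing of its seed, bases 2 to 8, with the 3′ untranslated region (3′UTR), and the paired transcripts are repressed and often degraded. The miR-17~92 cluster is one transcript that yields miRNAs of several seed families, among them the miR-92 family. Textbook accounts tie the whole cluster to growth and survival in the embryo and miR-92a to integrin control in endothelial cells.

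The deleted hairpin and its family are shown here because the results are read against this seed. The seed is in capitals and the rest is in lower case, 5′ to 3′. Mature sequences are RefSeq's on GRCm38.p6. In that build mature miR-92a-3p of the deleted gene lies at chr14:115044476-115044496 on the plus strand, within the noncoding host gene Mir17hg. The same mature sequence is also encoded by miR-92a-2 on the X chromosome, in another cluster that the Δ92 label does not name. The other 5 family members listed share the seed.
miR-92a-3p: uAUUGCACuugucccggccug
miR-92b-3p: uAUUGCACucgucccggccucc
miR-25-3p: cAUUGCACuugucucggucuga
miR-32-5p: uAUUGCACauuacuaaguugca
miR-363-3p: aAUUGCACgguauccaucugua
miR-367-3p: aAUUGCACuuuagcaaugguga
The other seed families of the cluster differ, as miR-17-5p, miR-18a-5p and miR-19a-3p show.
miR-17-5p: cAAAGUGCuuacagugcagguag
miR-18a-5p: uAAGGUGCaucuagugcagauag
miR-19a-3p: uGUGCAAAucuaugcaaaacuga

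In a 3′UTR the miR-92 seed pairs with GTGCAAT (a 7mer-m8 match), and the strongest match adds an A after it, GTGCAATA (an 8mer). Searched on the transcript strand, an 8mer was present in 2.3% of 21037 mouse genes with an annotated 3′UTR. Sites of 6 genes that rose in Δ92 are shown because these genes carry the results that follow, with the match in capitals and 15 bases before it. They come from the longest annotated 3′UTR of each gene (GENCODE vM21, GRCm38). They lie at chr3:27418558-27418586 (minus strand) for Fndc3b, chr17:64752608-64752636 (plus) for Man2a1, chr14:18268870-18268898 (minus) for Rpl15, chr15:103344309-103344337 (minus) for Itga5, chr2:83806400-83806428 (plus) for Itgav and chr7:112118168-112118196 (minus) for Dkk3.
Fndc3b: ctttaagagggcattGTGCAATAgttagt
Man2a1: cgtccttggtttaacGTGCAATAactaag
Rpl15: aaatgtagaagttaaGTGCAATAattgaa
Itga5: taaactctgttgcaaGTGCAATAaacccc
Itgav: tgtcattgttcttaaGTGCAATAtaacaa
Dkk3: gagtcactggtagatGTGCAATAgaaatg

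The 6 libraries held 18984391 to 22751352 counts, and all 23 rest-of-embryo libraries held 16944224 to 25479249. Levels are given as CPM, the usual unit of a count relative to its library total, after scaling by trimmed mean of M values (TMM), whose factors ran from 0.98 to 1.01. Replicates of every group differed by more than counting noise, so no library was a repeat of another. The transcript Xist, made from an inactive X chromosome and so a mark of female embryos, was above 500 CPM in 3 of 3 Δ92 libraries but 1 of 3 wild-type libraries, in 2 of 3 Δ17,18 libraries and 0 of 2 Δ17,18,92 libraries, so sex was uneven between the groups. In a fit with Xist class as a covariate, chosen after the data were seen, 15 genes changed with that class. Cardiac muscle transcripts were present in all 6 libraries, and the summed level of the 14 cardiomyocyte markers tested was 483 to 561 CPM in Δ92 against 364 to 462 CPM in wild type. The 9 tail bud markers tested summed to 34.6 to 38.8 CPM in Δ92 and 32.6 to 37.2 CPM in wild type. The tissue label was matched by transcripts of somite derivatives (367 to 394 CPM against 358 to 381 CPM), neural cells (694 to 826 CPM against 698 to 826 CPM) and neural crest (586 to 642 CPM against 582 to 617 CPM).

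The deletion itself could not be read from these libraries, because the 6 hairpin genes of the cluster had 0 counts in every rest-of-embryo library. The host transcript Mir17hg (ENSMUSG00000089726), from which the cluster's miRNAs are cut, rose in Δ92. Its levels were 154.0, 160.8 and 158.5 CPM in the wild-type libraries and 205.1, 193.8 and 224.6 CPM in the Δ92 libraries. All Δ92 libraries were above all wild-type libraries, with a difference of 0.40 ± 0.05 (SE) on the log2 scale (adjusted p = 5.14e-05, edgeR's quasi-likelihood test with Benjamini-Hochberg adjustment over the 17512 genes tested, used throughout). Mir17hg was also higher in Δ17,18,92 (452.7 to 494.1 CPM) than in Δ17,18 (278.6 to 311.5 CPM), and the increases on both backgrounds were not told apart (difference −0.30, adjusted p = 0.167). It was also above wild type in genotypes that keep miR-92a-1, at 294.0 to 311.4 CPM in Δ17 and 231.7 to 251.7 CPM in Δ19, and was at 150.8 to 169.9 CPM in Δ18. Mcm7, whose intron encodes the family member miR-25, differed by −0.03 ± 0.04 (adjusted p = 0.886). None of the 48 other tested genes within 10 Mb of Mir17hg was called. Over all genes tested 0.588% were called, a share at which 48 genes would mostly hold no call.

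Loss of miR-92a-1 was followed by small, mostly upward changes. At an adjusted p under 0.05, 103 of 17512 genes tested were called (0.588%), of which 94 rose (0.537%) and 9 fell (0.0514%), and 1450 genes had an unadjusted p under 0.05. The rises ran from 1.10-fold to 2.20-fold, and 6 of the 94 exceeded 1.5-fold. All 103 called genes had Δ92 and wild-type libraries that did not overlap, which describes the same values that the test used and is not separate support. In bulk tissue, fewer cells of a type and less RNA per cell cannot be told apart, and this holds for each level given here. With Xist class in the fit, 59 genes rose and 5 fell, and all of these 64 were among the 103. Among the calls that ended in that fit were Cdk5rap1, Btg2, Cpt1c, Utp14b and Kpna3 and the matrix genes Col4a6, Col7a1, Lama1 and P3h1 (adjusted p of 0.0701 to 0.208). Of the 103 calls, 42 were kept when each of the 6 libraries was left out in turn, which gave 67 to 76 calls, the lowest without wild-type replicate 3 (61 higher and 6 lower). The count of rises was 60 without wild-type replicate 1 and 61 without Δ92 replicate 2. Among the calls that ended without at least 1 library were the raised genes Synpo2l, Pcolce2, Cdk5rap1, Btg2, Tef, Col4a1, Col4a6, Col18a1, Col7a1, Lama1, P3h1 and Sun2 and the lowered genes Cpt1c, Cep290, Utp14b and Kpna3.

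**Figure D1:**
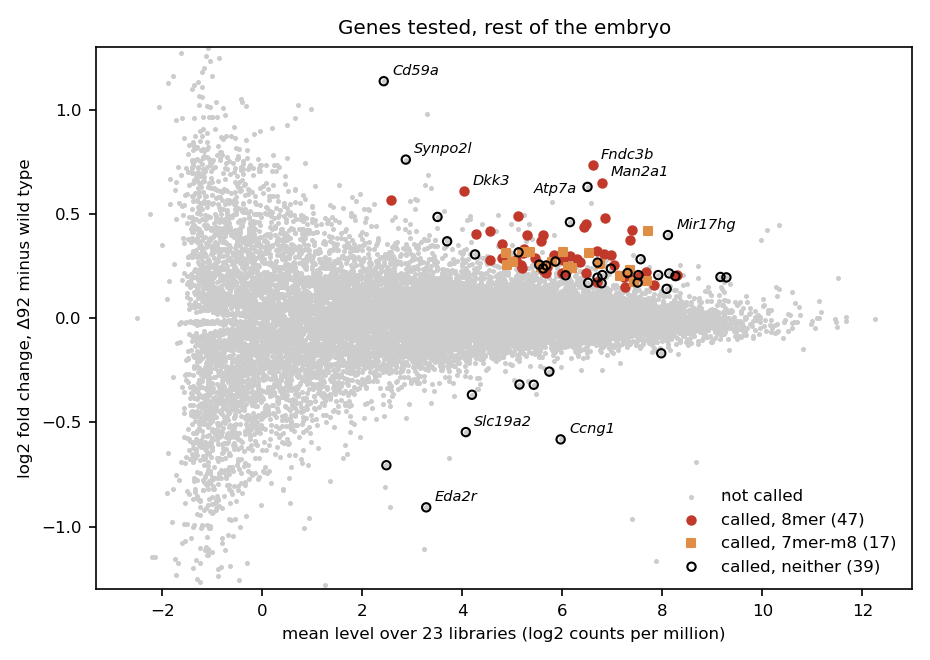
Each point is 1 of the 17512 genes tested, with its mean level over the 23 rest-of-embryo libraries (log2 CPM, horizontal) and its log2 fold change in Δ92 against wild type (vertical, drawn from −1.3 to 1.3, so more extreme low-level genes fall outside). Filled red circles and orange squares are called genes with a miR-92 8mer or 7mer-m8 match in the 3′UTR (47 and 17, all raised), open circles are the other 39 called genes, and grey points were not called.

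Fndc3b had the smallest p of all genes and was the largest rise among genes above 10 CPM in every library. It encodes a membrane protein with fibronectin type III domains. Its levels were 76.0, 73.6 and 74.0 CPM in wild type and 121.3, 127.5 and 122.3 CPM in Δ92, a difference of 0.73 ± 0.04 on the log2 scale or 1.66-fold (adjusted p = 5.23e-13). The lowest Δ92 library lay far above the highest wild-type library compared with the spread within either group. The Fndc3b 3′UTR of 3129 bases holds the 8mer shown above and 1 further 7mer-m8 match.

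Man2a1, which encodes an alpha-mannosidase that trims N-linked glycans in the Golgi, followed the same pattern. It measured 95.2, 91.6 and 95.2 CPM in wild type and 155.0, 143.5 and 144.0 CPM in Δ92, a difference of 0.65 ± 0.05 (adjusted p = 1.66e-10). Its 3′UTR has 1 8mer and 2 7mer-m8 matches, the most strong matches of any gene named here.

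Rpl15, a protein of the large ribosomal subunit, has 1 8mer. It measured 84.6, 81.2 and 79.0 CPM in wild type and 112.2, 107.1 and 111.6 CPM in Δ92, with no overlap (0.44 ± 0.04, adjusted p = 3.52e-08). Ribosomal protein genes have near-identical copies elsewhere in the genome, so the reads assigned to Rpl15 are less certain than for a single-copy gene. Pkdcc, a secreted kinase needed for skeletal growth, rose from 152.8 to 164.6 CPM in wild type to 207.5 to 215.4 CPM in Δ92 (0.42 ± 0.04, adjusted p = 1.84e-07). Sfxn1 encodes a mitochondrial serine transporter, and its libraries lay close together within each group. Its levels were 122.2, 123.3 and 122.4 CPM in wild type and 149.4, 152.3 and 151.2 CPM in Δ92 (0.30 ± 0.03, adjusted p = 1.27e-06). Edem1, which sends misfolded glycoproteins to degradation, differed by 0.31 ± 0.04 (adjusted p = 9.86e-06). Necap1, an endocytosis adaptor, differed by 0.40 ± 0.06 (adjusted p = 6.52e-05), and Bsdc1 by 0.40 ± 0.06 (adjusted p = 0.000139). Each of these 5 genes has 1 8mer.

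Of 15 integrin genes tested, 3 alpha chains rose and none fell, beside 0.537% raised and 0.0514% lowered over all genes tested. Integrins are the paired cell-surface receptors through which cells hold extracellular matrix, and Itga5, Itgav and Itga8 encode alpha chains that bind ligands such as fibronectin carrying the RGD motif. Itga5 measured 104.8, 104.4 and 104.7 CPM in wild type and 135.7, 158.2 and 143.2 CPM in Δ92 (0.48 ± 0.05, adjusted p = 5.09e-08). The wild-type libraries were nearly identical, while the Δ92 libraries spread with an SD of 11.5 CPM and still did not overlap them. Itgav measured 71.3, 76.7 and 80.3 CPM against 101.4, 107.6 and 103.8 CPM (0.45 ± 0.06, adjusted p = 9.86e-06). Itga8 measured 30.7, 27.0 and 29.7 CPM against 41.6, 38.8 and 42.3 CPM (0.49 ± 0.07, adjusted p = 5.07e-05). All 3 have an 8mer. The other 12 integrin genes tested were not called, with differences from −0.24 to 0.24, and the beta chain Itgb1, the partner of Itga5 and Itga8, differed by 0.08 ± 0.04 (adjusted p = 0.646). The median over the 15 integrins was 0.08, beside −0.003 over all genes tested.

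Of 16 genes reported as miR-92 family targets in the literature and listed for this comparison, 15 were tested, 2 rose and 0 fell. Besides Itga5, this was Dkk3, a secreted member of the Dickkopf family, at 12.6, 14.2 and 14.7 CPM in wild type and 19.8, 23.2 and 20.3 CPM in Δ92 (0.61 ± 0.10, adjusted p = 0.00047). The other 13 ran from −0.03 to 0.48, and the list's median was 0.12, beside −0.003 over all genes tested. Of all genes tested, 0.537% rose and 0.0514% fell. The pro-apoptotic BH3 protein gene Bcl2l11 (Bim) differed by 0.19 ± 0.05 (adjusted p = 0.0791). Among members singled out after their values were seen, Fbxw7, a ubiquitin ligase subunit, differed by 0.25 ± 0.06 (adjusted p = 0.0736) and the endothelial transcription factor Klf2 by 0.48 ± 0.19 (adjusted p = 0.457), although both have an 8mer.

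**Figure D2:**
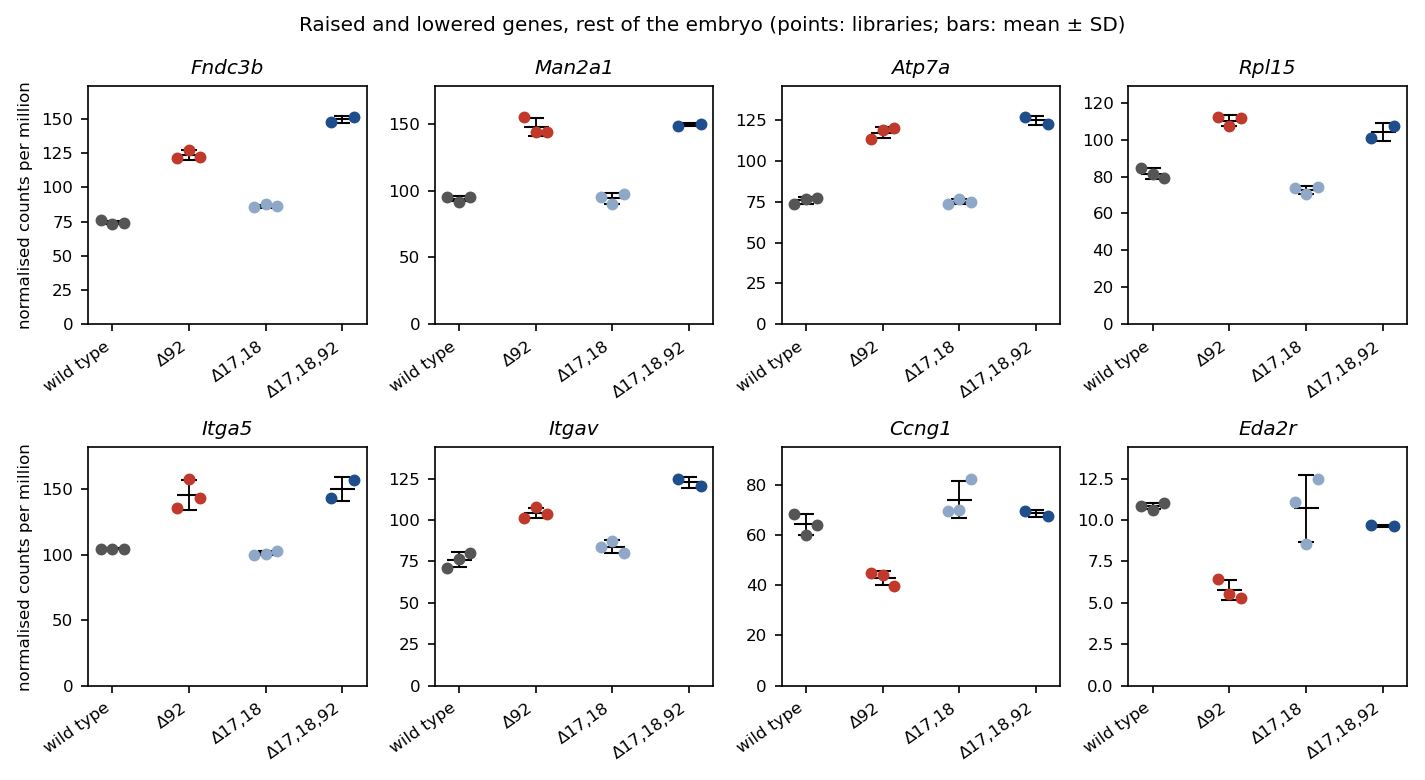
Normalised level (CPM) of 8 genes (1 panel each, vertical axes from 0) in the wild-type, Δ92, Δ17,18 and Δ17,18,92 libraries of the rest of the embryo. Points are libraries and bars are mean ± SD, and in the 6 raised genes both genotypes without miR-92a-1 lie above both genotypes that keep it, while Ccng1 and Eda2r are low in Δ92 but not in Δ17,18,92.

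Seed matches were unevenly spread over the called genes, a feature the choice of libraries did not use. Of the 91 raised genes with an annotated 3′UTR, 64 (70.3%) held an 8mer or a 7mer-m8, compared with 1083 (7.5%) of the 14379 tested genes with a 3′UTR. Of the 7 lowered genes with a 3′UTR, 0 held any miR-92 match. Among the 394 tested genes with an 8mer, 47 rose (11.93%) and 0 fell, 75.1% had a positive difference, and the median difference was 0.11. The 689 genes with a 7mer-m8 and no 8mer had 17 rises and a median of 0.02. The 931 genes with only the 7mer lacking the pairing at base 8 but followed by A (7mer-A1) had 3 rises and a median of −0.004, and the 1780 with only a 6mer had 7 and −0.01. Among the 10585 genes with no match 17 rose and 7 fell, with a median of 0.001. Genes with 1 strong match (8mer or 7mer-m8) had a median of 0.04 and those with 2 or more 0.10, with 49 of 974 and 15 of 109 raised. Genes with an 8mer of the other families of the cluster had medians of −0.01 (miR-17), −0.02 (miR-18) and −0.01 (miR-19).

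**Figure D3:**
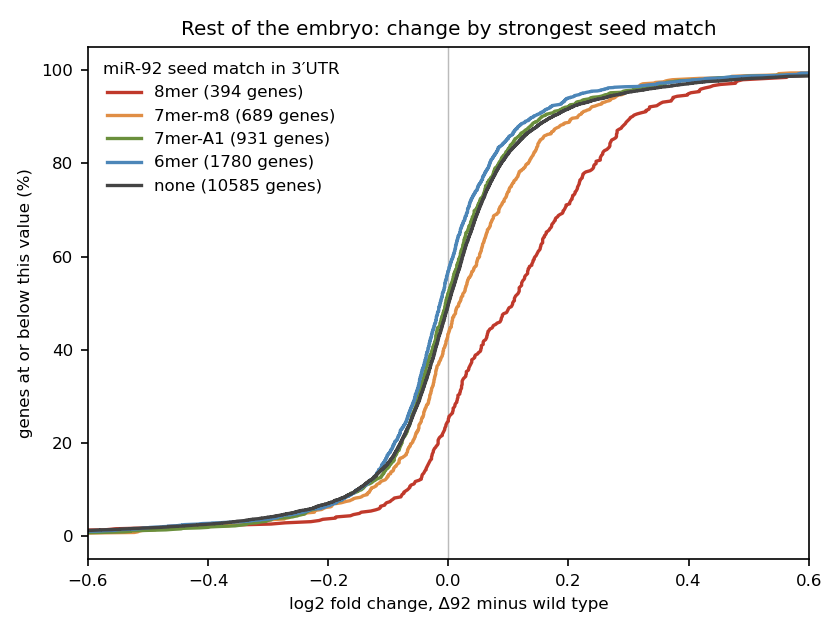
Cumulative share of genes (vertical, percent) at or below each log2 fold change of Δ92 against wild type (horizontal, drawn from −0.6 to 0.6), 1 line for each strongest miR-92 match in the 3′UTR. The line of the 394 genes with an 8mer lies to the right of the others (median 0.11), that of the 689 genes with a 7mer-m8 lies slightly to the right (median 0.02), and the remaining lines lie together near 0.

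The mean level of the 8mer genes was shifted upward in each Δ92 library. The score plotted by library is the mean log2 level of the 394 genes with an 8mer less that of genes with no match of any of the cluster's 4 seeds, with the wild-type mean set to 0. It was −0.02, 0.002 and 0.02 in the wild-type libraries and 0.05, 0.11 and 0.07 in the Δ92 libraries. All 3 Δ92 libraries lay above all 3 wild-type libraries, and Δ92 replicate 1 was the lowest of them. The 2 Δ17,18,92 libraries scored 0.15 and 0.14, and the 3 Δ17,18 libraries −0.03, −0.02 and −0.03. The Δ18 libraries, which keep miR-92a-1, scored 0.0468, −0.0562 and −0.0071, so the highest lay close to Δ92 replicate 1 (0.0504). The same score for genes with a 7mer-m8 and no 8mer overlapped between the groups. It was −0.03, 0.009 and 0.02 in wild type and −0.02, 0.05 and 0.01 in Δ92. Most 8mer genes moved little: 347 of the 394 were not called and had a median of 0.07. The raised 8mer genes were expressed at a median of 6.07 log2 CPM against 5.01 for those not called, and their 3′UTRs had median lengths of 2059 and 2616 bases. The count of rises followed the level, with 0 of 53 at a mean log2 CPM under 2, 7 of 127 from 2 to 5 and 40 of 214 at 5 or more.

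**Figure D4:**
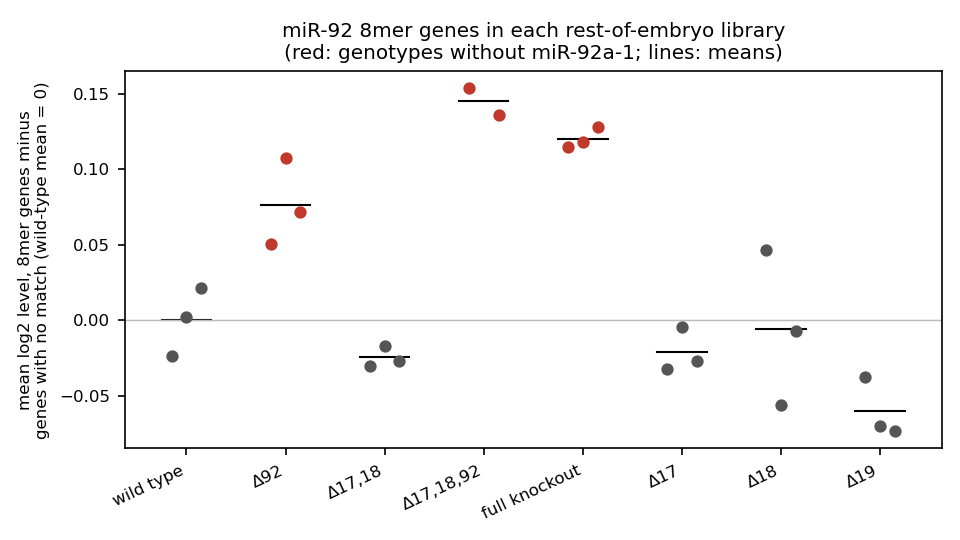
Score of the 394 miR-92 8mer genes in each of the 23 rest-of-embryo libraries (vertical, log2 units against the wild-type mean), by genotype. Points are libraries, lines are group means and red marks the genotypes that lack miR-92a-1. Their 8 libraries scored 0.0504 or more, and the highest of the other libraries, Δ18 replicate 1, scored 0.0468.

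30 raised genes had no strong match in the annotated 3′UTR, or no annotated 3′UTR. Of the 27 that had a 3′UTR, 6 carried an 8mer or 7mer-m8 upstream of the stop codon, while 5.6% of all tested genes of this kind did. Atp7a stood out among the remainder. It encodes the copper-transporting ATPase of the secretory pathway, lies on the X chromosome, and measured 73.5, 76.8 and 77.7 CPM in wild type and 113.5, 119.0 and 120.1 CPM in Δ92 (0.63 ± 0.04, adjusted p = 1.88e-11, the second smallest p). Neither its annotated 3′UTR of 311 bases nor the transcript upstream of the stop codon held a strong match. The wild-type library with high Xist measured 76.8 CPM, and the Δ17,18,92 libraries, with low Xist, measured 122.9 to 127.0 CPM. Of 752 tested X-linked genes, 5 were called (0.665%).

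Cd59a, an inhibitor of complement on cell surfaces, had the largest rise of the named genes, at 4.00, 3.97 and 3.87 CPM in wild type and 9.96, 7.89 and 8.17 CPM in Δ92 (1.14 ± 0.17, adjusted p = 0.000139). DESeq2 gave no adjusted p for Cd59a (unadjusted p = 2.18e-09). Cd59a was also called higher in Δ18, which keeps miR-92a-1 (0.85, adjusted p = 0.0127). Between Δ17,18,92 and Δ17,18 it differed by −0.33 (adjusted p = 0.466). The Cd59a 3′UTR has only a 6mer, and its close paralog Cd59b makes the assignment of reads uncertain. Synpo2l, which encodes an actin-associated protein of striated muscle, measured 4.9, 5.84 and 4.69 CPM against 9.43, 9.00 and 7.78 CPM (0.76 ± 0.16, adjusted p = 0.0195). The call for Synpo2l ended without wild-type replicate 1 or 3 or Δ92 replicate 1 or 2, with adjusted p of 0.0919 to 0.132. The 14 cardiomyocyte markers were also higher in Δ92, all 14 with positive differences and a median of 0.48, although 0 was called, and their part in the Synpo2l result was not tested. Myo1c, a class I myosin that links membranes to actin, rose from 60.7 to 71.1 CPM in wild type to 85.9 to 96.0 CPM in Δ92 with only a 6mer (0.46 ± 0.06, adjusted p = 4.06e-05). Cdk5rap1, a mitochondrial tRNA-modifying enzyme with no match, differed by 0.49 ± 0.11 (adjusted p = 0.0357), and its call ended without wild-type replicate 1 or 3 or Δ92 replicate 1 or 3 (adjusted p of 0.123 to 0.246).

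3 further raised genes with matches rested on fewer libraries. Pcolce2, an enhancer of procollagen processing with 1 8mer and 1 7mer-m8, differed by 0.57 ± 0.12 (adjusted p = 0.00952), and its call ended without wild-type replicate 2 or 3 or Δ92 replicate 2 or 3 (adjusted p of 0.0663 to 0.0995). Btg2, an antiproliferative gene with 2 8mers and the sole call among 14 immediate early and stress genes tested, differed by 0.42 ± 0.09 (adjusted p = 0.0256). It was called without Δ92 replicate 1 but not without any other of the 6 libraries (adjusted p of 0.0726 to 0.162). Tef, a clock output factor with an 8mer and the sole call among 12 circadian genes tested, differed by 0.28 ± 0.07 (adjusted p = 0.0422). Tef was called without Δ92 replicate 2 but not without any other of the 6 libraries (adjusted p of 0.0916 to 0.269). The single calls in these lists stand beside 0.588% called over all genes tested.

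The lowered genes were led by both members of the p53 target list that were called, of 13 tested. Over all genes tested 0.0514% were lowered. Eda2r, a TNF receptor family member, measured 10.9, 10.6 and 11.0 CPM in wild type and 6.46, 5.53 and 5.32 CPM in Δ92, a fold of 0.533 (−0.91 ± 0.12, adjusted p = 4.14e-05). Ccng1, which encodes cyclin G1, measured 68.3, 60.0 and 64.1 CPM against 44.9, 44.1 and 39.5 CPM (−0.58 ± 0.07, adjusted p = 4.14e-05). Both were called without each of the 6 libraries in turn. The other 11 p53 targets ran from −0.31 to 0.04, with a list median of −0.11. Of the 13, 1 was positive, beside 48.9% of all genes tested. Cdkn1a, the best-known p53 target and named here after its value was seen, differed by −0.15 ± 0.11 (adjusted p = 0.79), and Mdm2 by −0.02 ± 0.05 (adjusted p = 0.968).

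Slc19a2, a thiamine transporter, fell from 15.8, 17.6 and 16.3 CPM to 11.5, 11.4 and 11.1 CPM (−0.55 ± 0.10, adjusted p = 0.00157). The further falls described here were smaller and ended without single libraries. Cpt1c, a brain carnitine palmitoyltransferase isoform, differed by −0.37 ± 0.08 (adjusted p = 0.0159), and its call ended without wild-type replicate 1 or 3 or Δ92 replicate 2 or 3 (0.0698 to 0.104 as adjusted p). Cep290, a ciliary transition zone protein, differed by −0.32 ± 0.06 (adjusted p = 0.0079), and its call ended without Δ92 replicate 3 (adjusted p = 0.111). Utp14b differed by −0.26 ± 0.06 (adjusted p = 0.0461), and its call ended without wild-type replicate 2 or 3 or Δ92 replicate 2 or 3 (adjusted p of 0.0661 to 0.367). The nuclear import receptor gene Kpna3 differed by −0.17 ± 0.04 (adjusted p = 0.0282) and was called without wild-type replicate 2 but not without any other of the 6 libraries (adjusted p of 0.0976 to 0.205). Just outside the threshold, Tbl1x differed by −0.17 ± 0.04 (adjusted p = 0.0501) and the DNA repair gene Brca2 by −0.22 ± 0.05 (adjusted p = 0.0665), with Brca2 groups that overlapped.

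The loss of miR-92a-1 on the Δ17,18 background gave a second measurement from 5 other libraries. There 441 of 17512 genes were called (2.52%), 332 higher (1.9%) and 109 lower (0.622%). Of the 94 genes raised in Δ92, 91 had a positive difference on the second background and 72 were called higher, which is 76.6% of the raised genes and 21.7% of the 332. The median over the 94 was 0.27 on both backgrounds. Fndc3b differed by 0.79, Atp7a by 0.73, Man2a1 by 0.67, Itga8 by 0.70, Itga5 by 0.57, Itgav by 0.55, Rpl15 by 0.52 and Dkk3 by 0.97 on the second background, each with an adjusted p of 3.85e-07 or smaller except Itgav (9.44e-07). The genes with an 8mer had a median of 0.12. Of the 15 integrins, 8 rose there, and among the members not called in Δ92 Itgb1 differed by 0.33 (adjusted p = 7.92e-05) and Itga9 by 0.28 (adjusted p = 0.000119). The count of calls on this background fell to 99 without Δ17,18,92 replicate 2 and to 268 without Δ17,18 replicate 2.

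The lowered genes did not recur in this way. Of the 9, 6 had a negative difference on the second background and 1, Cpt1c, was called lower (−0.32, adjusted p = 0.0334). Eda2r differed by −0.13 (adjusted p = 0.709) and Ccng1 by −0.10 (adjusted p = 0.61). The test of the difference between backgrounds gave −0.78 for Eda2r (adjusted p = 0.142) and −0.48 for Ccng1 (adjusted p = 0.143), so the drops were not shown to differ. The level of Eda2r was 9.61 to 9.71 CPM in Δ17,18,92 and 8.54 to 12.5 CPM in Δ17,18, and 6.94 to 8.02 CPM in Δ18, which lacks miR-18a and keeps miR-92a-1. Ccng1 was at 67.6 to 69.6 CPM in Δ17,18,92, 69.3 to 82.4 CPM in Δ17,18 and 52.2 to 57.4 CPM in Δ18. Against wild type, Eda2r was called lower in Δ18 (−0.57, adjusted p = 0.0224), and Ccng1 was not called there (−0.23, adjusted p = 0.184).

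**Figure D5:**
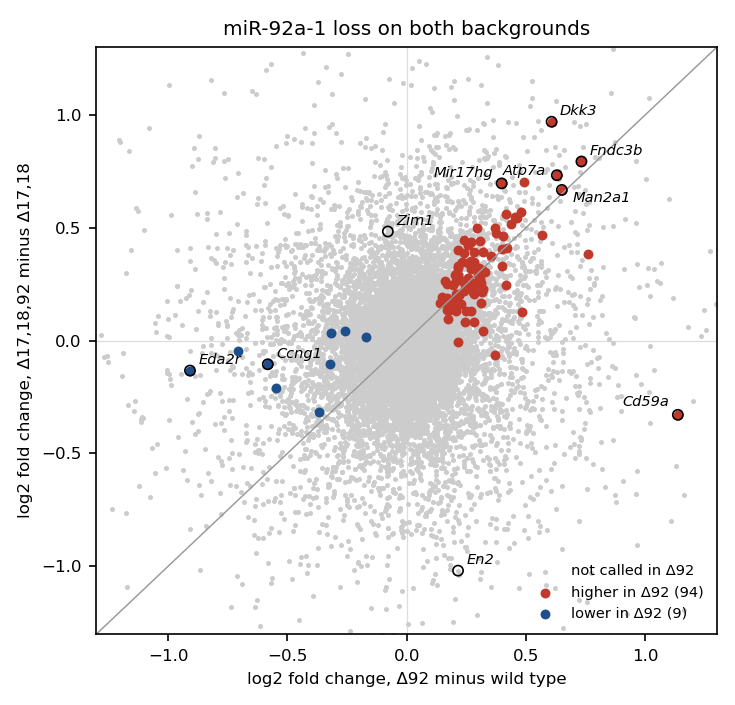
Log2 fold change of each tested gene for Δ92 against wild type (horizontal) and for Δ17,18,92 against Δ17,18 (vertical), both drawn from −1.3 to 1.3, with the line of equal change. Of the 94 raised genes (red) 91 lie above 0 on the vertical axis, 6 of the 9 lowered genes (blue) lie below 0 there, and circles mark the labelled genes.

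Across all genes the difference between backgrounds was called for 3 of 17512 (0.0171%), En2, Cd59a and Zim1, with 1755 at an unadjusted p under 0.05 and 46 called by DESeq2. That count was 1 without wild-type replicate 1 or 3 or Δ92 replicate 1, and rose to 13 without wild-type replicate 2, 5 and 8 without Δ92 replicates 2 and 3, 8 without Δ17,18 replicate 1 and 16 without Δ17,18,92 replicate 1. Genotypes compared with the same wild-type libraries share their control and are given side by side only. In the full cluster knockout the difference from wild type was 0.88 for Fndc3b, 0.63 for Atp7a, 0.61 for Man2a1, 0.34 for Itga5 and 0.56 for Dkk3. Of the 94 raised genes 91 were positive there and 56 called higher, with a median of 0.20 beside −0.003 over all genes tested. The share of all genes called in the full knockout is not given here, so counts of calls for that genotype stand without it. Of the 9 lowered genes 2 were negative and 0 called lower there. Kpna3 (0.29, adjusted p = 3.19e-06) and Cpt1c (0.33, adjusted p = 0.00552) were called higher. Eda2r (0.25) and Ccng1 (0.15) were not called. In Δ19, which keeps miR-92a-1, Slc19a2 (−0.39, adjusted p = 0.0233) and Ccng1 (−0.28, adjusted p = 0.0479) were called lower. Kpna3 was called higher in Δ19 (0.17, adjusted p = 0.0174). The median over the 8mer genes was 0.08 in the full knockout, −0.03 in Δ17, 0.009 in Δ18 and −0.04 in Δ19.

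In the other tissues the raised genes mostly moved the same way. Libraries of different tissues may come from the same embryos, since Xist class was the same in all 3 tissues for 23 of 23 combinations of genotype and replicate number, but the labels do not state it. In tail bud, 61 of 17009 genes were called (0.359%; 0.323% higher and 0.0353% lower), and of the 94 raised genes 92 were positive and 38 called higher. In heart, 12 of 16750 were called (0.0716%; 0.0597% higher and 0.0119% lower), and 86 of the 94 were positive and 8 called higher. The medians over the 94 were 0.26 in tail bud and 0.15 in heart. Fndc3b differed by 0.83 in tail bud (adjusted p = 3.08e-06) and 0.41 in heart (adjusted p = 0.0113), and Atp7a by 0.71 (adjusted p = 3.72e-07) and 0.53 (adjusted p = 0.00116). Dkk3 and Man2a1 were also called in both, with 0.65 and 0.60 in tail bud and 0.41 and 0.35 in heart. Itga5 differed by 0.43 in tail bud (adjusted p = 3.08e-06) and 0.31 in heart (adjusted p = 0.534). Itgav differed by 0.325 in tail bud (adjusted p = 0.0196) and 0.28 in heart (adjusted p = 0.587). Itga8 went the other way in tail bud, at −0.24 (adjusted p = 0.858), and differed by 0.57 in heart (adjusted p = 0.901). In the test of the difference between tissues, 0 of 17469 genes were called for rest of embryo against tail bud by edgeR, with 507 at an unadjusted p under 0.05 and 0 called by DESeq2. Against heart, 1 gene was called, Synpo2l (0.00572%), with 557 at an unadjusted p under 0.05 and 4 called by DESeq2. The drops of Ccng1 (−0.53, adjusted p = 0.0115) and Slc19a2 (−0.37, adjusted p = 0.0265) were called in tail bud, and all 9 lowered genes were negative there.

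Lists of the embryo's cell types and pathways are given beside the 0.588% called over all genes, a share at which lists of this size would mostly hold no call. There was 0 rise and 0 fall among 33 Hox genes, 23 TGF-beta and BMP genes, 18 Notch genes, 11 WNT feedback genes, 25 cell cycle and E2F genes, 16 hypoxia and glycolysis genes, 12 genes of the microRNA machinery and 15 genes of the BCL2 family, with medians from −0.06 to 0.03. The same held for 19 neural, 13 neural crest, 13 pharyngeal arch and second heart field, 11 limb bud, 12 gut endoderm and 8 iron handling genes, with medians in the same range. The chondrogenic factor Sox9 had the smallest p among the 15 somite genes, at 0.21 ± 0.06 (adjusted p = 0.105). In the microRNA machinery, Tnrc6b and Ago2, which encode parts of the silencing complex, differed by −0.12 ± 0.06 and −0.11 ± 0.06 (adjusted p = 0.596 and 0.608). Ccn2, a matricellular gene on the TGF-beta list, differed by 0.29 ± 0.09 (adjusted p = 0.202).

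Some lists leaned one way without a call, beside 48.9% of all tested genes with a positive difference. Hox genes leaned down, with 8 of 33 positive (median −0.06). Neural crest genes leaned up, with 11 of 13 positive (median 0.03). All 16 endothelial genes were positive (median 0.08, summed level 721 to 753 CPM in Δ92 against 678 to 698 CPM in wild type), led by the receptor gene Tie1 at 0.18 ± 0.05 (adjusted p = 0.157). All 18 cholesterol synthesis genes were positive (median 0.22), with Idi1 at 0.45 ± 0.19 (adjusted p = 0.526), and their summed level overlapped, at 1700 to 2175 CPM against 1623 to 1990 CPM. All 15 primitive erythroid genes were positive (median 0.31), with Hbb-bs at 0.52 ± 0.26 (adjusted p = 0.637), and their summed level overlapped, at 3509 to 4908 CPM against 2793 to 4162 CPM. On the second background the erythroid genes had a median of −0.82 and 1 fall. Visceral endoderm genes, markers of yolk sac left on the embryo, summed to 64.6 to 933 CPM in Δ92 and 66.0 to 577 CPM in wild type, so single libraries differed more than the groups did. Genes of 1 list can vary together between libraries, so these counts may hold fewer independent values than genes.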

How the data were processed

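Per the labels' protocols, RNA was extracted in TRIZOL and sequenced as single reads of 50 bases. The authors deposited 1 table of read counts for 37620 genes and 71 libraries, not normalised. The submitters' processing notes name the builds NCBIM37 and mm9, the Subread package 1.4.2 with featureCounts, the aligner STAR 2.3.0 and SAMtools 0.1.14. Strand setting, RNA selection and handling of multi-mapping reads are not given in the sources used here. Symbols came from the gene IDs (32897 matched), and 37 mitochondrial genes had 0 counts throughout.

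Groups and replicate numbers came from sample titles. Counts of all 23 rest-of-embryo libraries were fitted together by genotype with edgeR 4.0.16 (filterByExpr, TMM, robust quasi-likelihood; 17512 genes; biological coefficient of variation 6.47%) in R 4.3.3. The tissue differences used the 18 wild-type and Δ92 libraries. Log2 differences are given ± SE from that test, and p-values were adjusted by Benjamini-Hochberg over all genes tested, at 0.05. The test was tried on simulated counts with known changes first.

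The longest 3′UTR of each protein-coding gene was taken from GENCODE vM21 (GRCm38), a later build than the counts used. Site classes name the strongest match. Genes named are Mir17hg, up to 15 per direction by size of change (adjusted p under 0.05, mean log2 CPM of at least 2, groups not overlapping; with fewer than 10, the rest by smallest p), 12 8mer genes by smallest p, up to 4 called or 2 uncalled members per list, and genes called in a difference test. Values of 3 genes that this rule or the lists cover are not reported here. The libraries, lists and rules were chosen with earlier results of these data known. Alternatives were RLE scaling, no filter or a level minimum, a replicate block, only the 6 libraries, DESeq2 1.42.0, leaving out each library, other site classes and, added after the data were seen, Xist class. Other genotypes and tissues were used only where named. Python 3.11.15 was used for site searches and figures.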

Additional observations from a re-analysis of the deposited data

Results flagged for a closer look

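4 genes were picked out because the test of a difference between 2 effects of the same deletion passed the threshold. Each is given as a value.

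En2, a homeobox gene of the midbrain and hindbrain, differed between backgrounds by 1.23 ± 0.13 on the log2 scale (adjusted p = 3.08e-06, edgeR). It measured 16.5 to 21.7 CPM in wild type and 20.6 to 23.4 CPM in Δ92 (0.22, adjusted p = 0.473), but 27.2 to 29.3 CPM in Δ17,18 and 12.8 to 14.7 CPM in Δ17,18,92. The adjusted p stayed under 0.05 without each of the 11 libraries, although leaving out 1 of the 2 Δ17,18,92 libraries leaves a lone sample that is assumed to vary like the other groups.

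Cd59a differed by 1.47 ± 0.26 (adjusted p = 0.0288). It rose in Δ92, and measured 4.71 to 4.84 CPM in Δ17,18 and 3.10 to 4.45 CPM in Δ17,18,92. In Δ18, which keeps miR-92a-1, its 3 libraries ran from 4.66 to 9.24 CPM, and it was called higher than in wild type (0.85, adjusted p = 0.0127). The Cd59a call was lost when wild-type replicate 1 or 3, Δ92 replicate 1, Δ17,18 replicate 2 or 3 or Δ17,18,92 replicate 1 was left out (adjusted p of 0.0545 to 0.156) and with Xist class in the fit (adjusted p = 0.0549).

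Zim1, an imprinted zinc finger gene with a miR-92 8mer, differed by −0.56 ± 0.10 (adjusted p = 0.0288). It measured 48.9 to 52.2 CPM in wild type, 43.7 to 50.3 CPM in Δ92, 43.2 to 44.4 CPM in Δ17,18 and 60.6 to 62.3 CPM in Δ17,18,92. The Zim1 call was lost when wild-type replicate 1 or 3, Δ92 replicate 1, Δ17,18 replicate 2 or 3 or Δ17,18,92 replicate 2 was left out (adjusted p of 0.0545 to 0.243) and with Xist class in the fit (adjusted p = 0.319).

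Synpo2l differed between rest of embryo and heart by 0.82 ± 0.12 (adjusted p = 0.0303), with −0.05 in heart (adjusted p = 0.992). The Synpo2l call was lost without wild-type heart replicate 1 or 2, Δ92 heart replicate 2 or 3, wild-type rest-of-embryo replicate 1 or 3 or Δ92 rest-of-embryo replicate 1 or 2 (adjusted p of 0.0877 to 0.344).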

How the results depend on the processing

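Under RLE scaling, a mean log2 CPM of at least 2 and the fit of only the 6 libraries, the count of calls stayed within 1.5 times of 103, and the median of the 8mer genes stayed positive in each setting run. Without the filter on low counts, 328 genes were called (273 higher, 55 lower, 81 with an 8mer), all 103 among them, with 952 on the second background and 299 for the difference between backgrounds. DESeq2 called 143 (20 lower; 99 shared; no adjusted p for the other 4, Cd59a, Synpo2l and Pcolce2 among them), and 46 and 4 for the differences between backgrounds and against heart. With Xist class, 64 were called (59 higher, 5 lower), with 281 on the second background and 1 for the difference. Counting 8mer or 7mer-m8 matches together gave a median of 0.0417.

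Leaving out 1 library gave 67 to 76 calls (60 to 69 higher, 6 to 12 lower), 32 to 37 raised 8mer genes with medians of 0.09 to 0.11, 99 to 365 calls on the second background, 1 to 16 for the difference between backgrounds and 0 to 1 against heart. Uncalled differences changed sign for Tfrc (−0.011 without wild-type replicate 1, up to 0.164), Spink1 (−0.847 without Δ92 replicate 1 to 1.341 without wild-type replicate 1) and Ttr (−1.574 to 1.782, the same libraries), and the cause was not tested. With a replicate block, 101 genes were called (95 shared), with 523 on the second background and 8 for the difference, and the calls of Cdk5rap1, Utp14b, Tef and Col4a6 ended (adjusted p of 0.0518 to 0.0637). Of the 104 calls in the fit of only the 6 libraries 79 were shared, and those of Pcolce2, Cpt1c, Utp14b, Col18a1, Col7a1 and Lama1 ended (adjusted p of 0.0502 to 0.132). Same-numbered Δ92 and wild-type libraries correlated at 0.29, 0.006 and 0.25 in their deviations, and Δ92 replicate 2 correlated best with wild-type replicate 3 (0.16), so the numbers were not read as pairs. With 3 libraries a group, differences as large as those called may also be missed.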

Other observations

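Collagen and laminin chains and other families were grouped after their values were seen, so their counts are descriptions without a test, beside 0.537% of all tested genes raised. Of 38 collagen chain genes tested, 4 rose and 0 fell in Δ92, 28 had a positive difference, and the median was 0.14, beside −0.003 over all genes. The 4 were Col4a1 (0.20 ± 0.04, adjusted p = 0.0133) and Col4a6 (0.24 ± 0.06, adjusted p = 0.0361) of basement membrane, Col18a1 (0.20 ± 0.05, adjusted p = 0.031) and Col7a1 (0.37 ± 0.08, adjusted p = 0.0259). On the second background 11 collagen genes rose and 0 fell, with a median of 0.20, where 1.9% of all tested genes rose and 0.622% fell. Col4a1, Col4a6 and Col18a1 were called higher there, while Col7a1 was not (−0.065, adjusted p = 0.82). Col7a1 was also called higher in Δ17, which keeps miR-92a-1 (0.36, adjusted p = 0.0152). Of 11 laminin chain genes 1 rose, Lama1 (0.21 ± 0.05, adjusted p = 0.0489), with a median of 0.12, and 5 rose on the second background. None of these 5 raised genes has an 8mer or 7mer-m8 in its 3′UTR. Of the collagen modifying enzymes, P3h1, a prolyl hydroxylase, differed by 0.26 ± 0.06 (adjusted p = 0.031) and Colgalt1, which adds galactose to collagen, by 0.21 ± 0.04 (adjusted p = 0.00232). With Xist class in the fit, the calls of Col4a6, Col7a1, Lama1 and P3h1 ended (adjusted p of 0.0728 to 0.134). Colgalt1 was called without each of the 6 libraries in turn. Without wild-type replicate 1, 2 or 3 or Δ92 replicate 1, 2 or 3, some of the other calls ended: Col4a6 in all 6 fits (adjusted p up to 0.164), Col18a1 in all but that without Δ92 replicate 3 (up to 0.198), P3h1 in all but that without wild-type replicate 3 (up to 0.202). Col7a1 was lost without wild-type replicate 1 or 3 or Δ92 replicate 1 or 3 (up to 0.246), Lama1 without wild-type replicate 1 or 3 or Δ92 replicate 1 or 2 (up to 0.308), and Col4a1 without wild-type replicate 3 or Δ92 replicate 1 or 2 (up to 0.147).

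Both SUN domain genes tested, which encode nuclear envelope proteins that anchor the cytoskeleton, rose in Δ92. Sun1, with a 7mer-m8, differed by 0.31 ± 0.04 (adjusted p = 4.06e-05), and Sun2, with no strong match, by 0.32 ± 0.07 (adjusted p = 0.0264), although Sun2 was called without Δ92 replicate 1 but not without any other of the 6 libraries (adjusted p up to 0.215).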
